A study of Mus musculus with 32 samples.

Results

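Direct pathway spiny projection neurons, also called D1 neurons, are one of the 2 large classes of output neurons of the striatum. They send inhibitory axons to the globus pallidus interna and the substantia nigra, and their activity promotes movement. They carry the D1 dopamine receptor, which couples through Golf to adenylyl cyclase and raises cyclic AMP, and they release the peptides made from the tachykinin and prodynorphin precursors. Indirect pathway neurons, which carry the D2 dopamine receptor and make enkephalin, are their counterpart, and both classes lose transcripts of identity genes in Huntington's disease models.

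The 7 direct pathway genes described here were chosen by symbol as markers of D1 neurons, by a rule that sets no threshold on measured values, and were matched to Ensembl identifiers through GENCODE M21. They were 7 of 54532 genes in the deposited table of counts, and all 7 were among the 16610 genes tested. Drd1 encodes the D1 dopamine receptor, Tac1 the precursor of substance P and neurokinin A, and Pdyn the precursor of the dynorphins. Slc35d3 encodes a nucleotide sugar transporter family protein involved in the traffic of the D1 receptor to the cell surface. Sfxn1 encodes a sideroflexin that carries serine into mitochondria. Eya1 encodes a transcriptional coactivator of the eyes absent family. Ebf1 encodes a helix-loop-helix transcription factor needed for the development of striatal matrix and direct pathway neurons.

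RNA was sequenced from the striatum of 32 mice at 6 months of age, with 8 mice in each of 4 genotypes, wild-type, Msh3-/-, zQ175 and zQ175:Msh3-/-. The zQ175 allele is a knock-in of an expanded CAG repeat into the mouse Htt gene, and Msh3-/- mice carry on both chromosomes a deletion made with CRISPR guides in the gene for the mismatch repair protein MSH3, which drives the growth of such repeats in somatic cells. All mice were littermates from crosses kept on the C57BL/6J strain. There were 4 males and 4 females of each genotype, except for 5 males and 3 females of zQ175:Msh3-/-. The tissue was whole striatum, which holds both neuron classes, interneurons and glia, so that fewer cells of a type and less RNA per cell cannot be told apart for any value given here.

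Total counts ranged from 12359347 to 25030335 per mouse. Levels are given as CPM, the count of a gene relative to the scaled library size. Msh3 itself ran from 22.8 to 27.5 CPM in the wild-type and zQ175 mice and from 10.4 to 14.2 CPM in the mice labelled as lacking it, without overlap. Counts are per gene, and reads from deleted and remaining exons were not separated. The 6 general spiny neuron markers, such as Ppp1r1b and Pde10a, were present in every mouse, with a summed level of at least 3673 CPM. Tissue from next to the striatum differed between mice. The summed CPM of 5 markers of cortical excitatory neurons ran from 43.8 to 289.9 in wild-type, 45.1 to 437 in Msh3-/-, 33.8 to 371 in zQ175 and 123 to 630.0 in zQ175:Msh3-/- mice, and that of 4 choroid plexus markers from 32.3 to 2968 over all mice.

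The 7 genes lie on 6 chromosomes of the mouse assembly GRCm38. Drd1 (ENSMUSG00000021478, chr13:54051183-54055705, minus strand) and Sfxn1 (ENSMUSG00000021474, chr13:54071869-54108342, plus strand) are neighbours, with 16163 bases between them, and are read away from each other. Tac1 (ENSMUSG00000061762) lies at chr6:7554879-7565834 on the plus strand, Pdyn (ENSMUSG00000027400) at chr2:129686565-129699844 on the minus strand, Slc35d3 (ENSMUSG00000050473) at chr10:19847916-19851459 on the minus strand, Eya1 (ENSMUSG00000025932) at chr1:14168954-14310235 on the minus strand and Ebf1 (ENSMUSG00000057098) at chr11:44617317-45008091 on the plus strand. No exon of the 7 genes overlaps an exon of another annotated gene. The introns of Eya1 and Ebf1 hold small genes, Gm22616 and Gm37444 in Eya1 and Gm12158 on the opposite strand in Ebf1, none of which was expressed above the filter on low counts.

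The part of the transcript that becomes the released peptide sets Tac1 and Pdyn apart from the other 5 genes, and these stretches are shown because the 2 peptide genes differed in their response to zQ175. In Tac1 the capitals mark the 5 codons that end each peptide, the motif shared by all tachykinins, which is followed by a glycine codon for amidation and a pair of codons for basic residues where the precursor is cut. Substance P is encoded in exon 3 of transcript ENSMUST00000090679.8 at chr6:7556732-7556773 and neurokinin A in exon 5 of transcript ENSMUST00000184986.1 at chr6:7559101-7559139, both on the plus strand of GRCm38.

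Tac1 substance P: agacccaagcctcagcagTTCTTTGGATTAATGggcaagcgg
Tac1 neurokinin A: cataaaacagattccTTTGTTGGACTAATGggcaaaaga

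In Pdyn the capitals mark the 5 codons of the opioid core, which stands at the start of each peptide between codons for pairs of basic residues. The 2 copies shown, A and B, lie in exon 4 of transcript ENSMUST00000028883.11, on the minus strand, at chr2:129688118-129688150 and chr2:129688061-129688093. The stretches come from the GENCODE M21 transcripts. The reads were counted per gene, and the counts do not tell the peptides of one precursor apart.

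Pdyn core A: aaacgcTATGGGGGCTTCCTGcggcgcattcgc
Pdyn core B: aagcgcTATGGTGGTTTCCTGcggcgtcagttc

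Per length of transcript, Tac1 was the most abundant of the 7 genes in wild-type striatum, at 369 ± 24.2 TPM, a measure that corrects for transcript length. Drd1 followed at 172 ± 16.4 TPM, Pdyn at 118 ± 11.0 TPM, Slc35d3 at 47.1 ± 2.62 TPM, Sfxn1 at 40.6 ± 3.80 TPM, Ebf1 at 9.32 ± 0.786 TPM and Eya1 at 4.97 ± 0.722 TPM (SD, n = 8). Of neighbours in this order only Slc35d3 and Sfxn1 had mice with overlapping levels. The order was the same in the other 3 genotypes, but in zQ175 and zQ175:Msh3-/- mice the levels of Drd1 (102 ± 6.32 and 108 ± 11.7 TPM) overlapped those of Pdyn (97.5 ± 8.85 and 94.4 ± 13.5 TPM), which they did not in mice without zQ175.

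The first comparison asked which of these genes changed with the zQ175 allele where Msh3 was intact. With zQ175, Drd1, Pdyn and Sfxn1 fell, none of the 7 was higher, and the 2 most abundant transcripts behaved differently, with Drd1 at 57.1% of its wild-type level and Tac1 at 104%. Calls needed an adjusted p under 0.05 together with a change of 1.2-fold or more. The 3 of 7 genes called lower compare with 6.89% of all genes tested called lower and 11.6% called in either direction. Over all genes 781 were called higher and 1144 lower, against 1316 higher and 881 lower in a limma fit of log2(TPM + 0.1). That fit tested 22274 genes in place of 16610, and their median log2 fold change was 0.07, so the 2 splits are not over the same genes. In the edgeR fit the median log2 fold change of the 7 genes was -0.25, and that of all genes tested 0.01. The members were chosen with earlier results of these data known, so this count is a description.

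**Figure D1:**
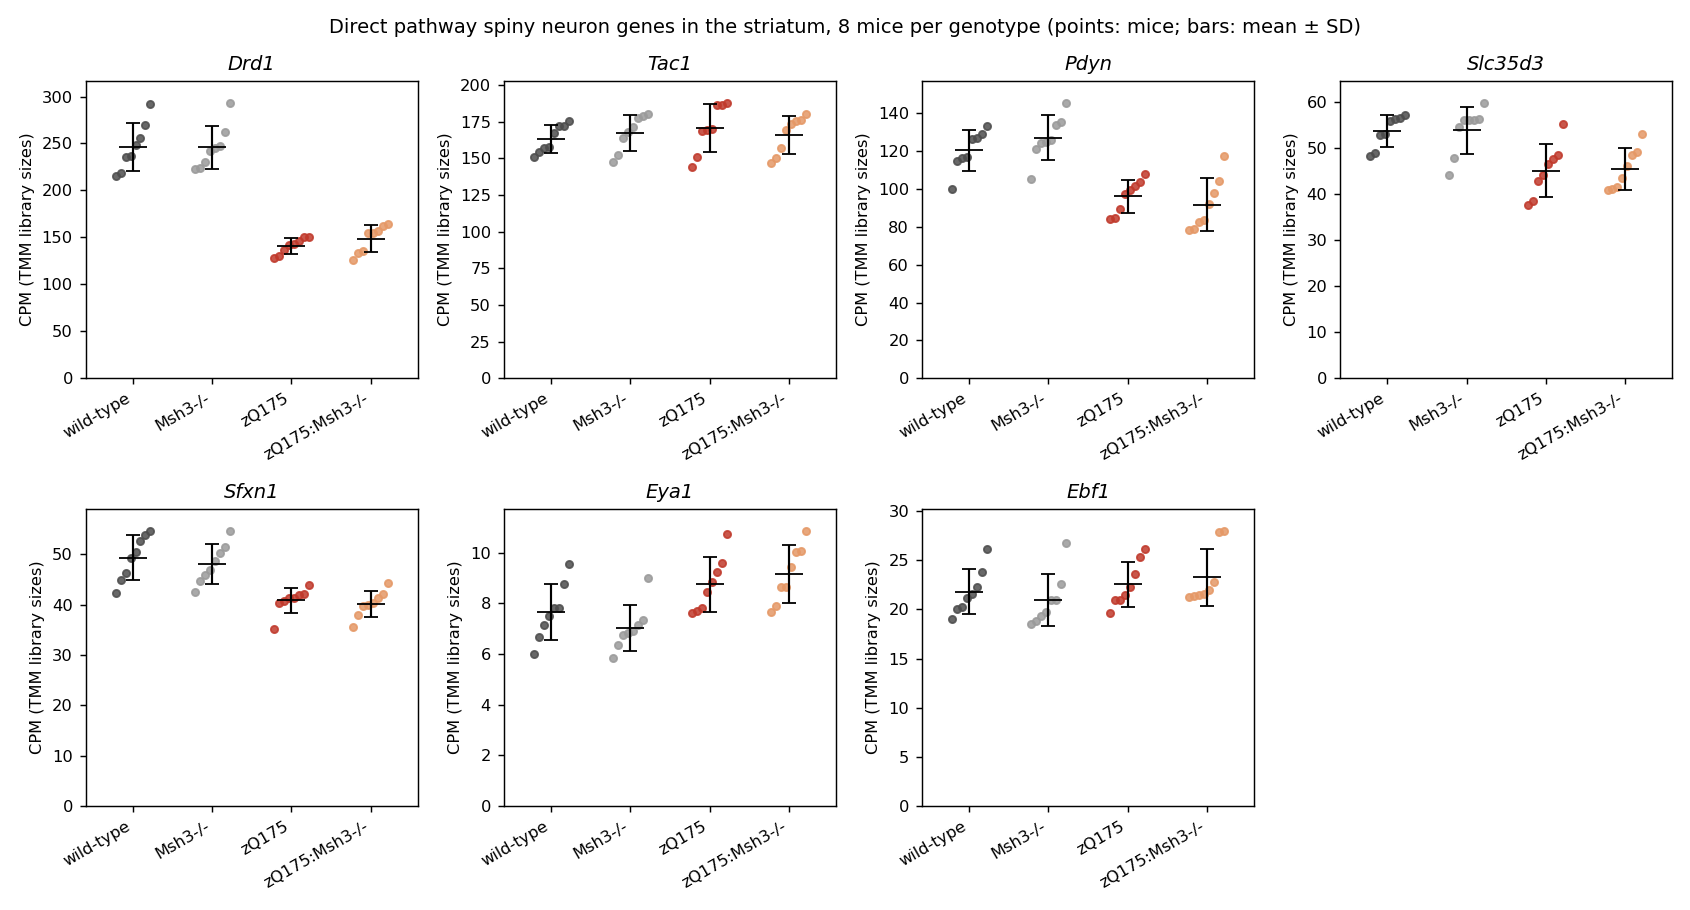
Level of each of the 7 genes in every mouse by genotype, in CPM scaled by TMM library sizes (vertical axis from 0). Points are mice and black bars are the mean ± SD of 8 mice. Drd1 is the gene whose zQ175 and zQ175:Msh3-/- mice, at 126 to 165 CPM, all lie under the mice without zQ175, at 216 to 293 CPM.

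Drd1 was at 216 CPM in the lowest, 243 CPM in the median and 292 CPM in the highest wild-type mouse. In zQ175 mice the same values were 128, 142 and 151 CPM. All 8 zQ175 mice lay below all 8 wild-type mice, and Drd1 was the only 1 of the 7 genes without overlap, against 6.63% of all genes tested. The log2 fold change was -0.81 (SE 0.0622, edgeR adjusted p = 2.82e-12), and the exact two-sided permutation test gave p = 0.000155, the smallest that 8 mice against 8 allow.

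The peptide precursors diverged. Tac1 ran from 151 to 175 CPM with a median of 162 CPM in wild-type mice, and from 144 to 188 CPM with a median of 169.9 CPM in zQ175 mice. The zQ175 mice were the more spread, with 2 below and 3 above every wild-type mouse. The log2 fold change was 0.06 (SE 0.0530, edgeR adjusted p = 0.422), and the 95% confidence interval, 97.0% to 113% of the wild-type level, excludes a loss of the size seen for Drd1. Pdyn ran from 99.8 to 133 CPM with a median of 122 CPM in wild-type mice, and from 84.1 to 108 CPM with a median of 98.7 CPM in zQ175 mice. All 8 zQ175 mice were below the wild-type median, although the groups overlapped. Pdyn was at 79.8% of the wild-type level (log2 fold change -0.32, SE 0.0752, edgeR adjusted p = 0.00137).

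Sfxn1, the mitochondrial serine carrier gene next to Drd1, ran from 42.2 to 54.7 CPM in wild-type and from 35.2 to 43.9 CPM in zQ175 mice, with medians of 49.9 and 41.3 CPM. Of the zQ175 mice, 7 of 8 lay below every wild-type mouse. Its log2 fold change of -0.27 (SE 0.0527, edgeR adjusted p = 1.49e-04) stood just past the 1.2-fold threshold, at 0.26 on the log2 scale, and leaving out zQ175 mouse F2, the lowest of its group, brought it to -0.24 and under the threshold. Leaving out wild-type mouse M4, F2 or F4 also did so, with values of -0.26, -0.25 and -0.25. Sfxn1 was not called either in the limma fits of TPM, at -0.21.

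Slc35d3, whose product serves the traffic of the D1 receptor, ran from 48.4 to 57.3 CPM in wild-type and from 37.7 to 55.3 CPM in zQ175 mice, with medians of 54.6 and 45.4 CPM. The adjusted p was 0.00578 by edgeR, but the log2 fold change, -0.25 (SE 0.0674), was under the fold threshold, so the gene was not called. It crossed that threshold without wild-type mouse M1 (-0.27), wild-type mouse M3 (-0.26) or zQ175 mouse M4 (-0.29). With no fold threshold it would be the fourth of the 7 genes called, against 26.5% of all genes tested.

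The coactivator gene Eya1 and the transcription factor gene Ebf1 were not lower. Eya1 ran from 6.01 to 9.53 CPM in wild-type and from 7.62 to 10.7 CPM in zQ175 mice, with a log2 fold change of 0.20 (SE 0.0903, edgeR adjusted p = 0.108). Ebf1 ran from 19.0 to 26.2 CPM in wild-type and from 19.6 to 26.1 CPM in zQ175 mice, with a log2 fold change of 0.05 (SE 0.0764, edgeR adjusted p = 0.666). For both genes the groups overlapped, and the 95% confidence intervals, 101% to 130.1% of the wild-type level for Eya1 and 93.2% to 116% for Ebf1, lie above the level that Drd1 reached.

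**Figure D2:**
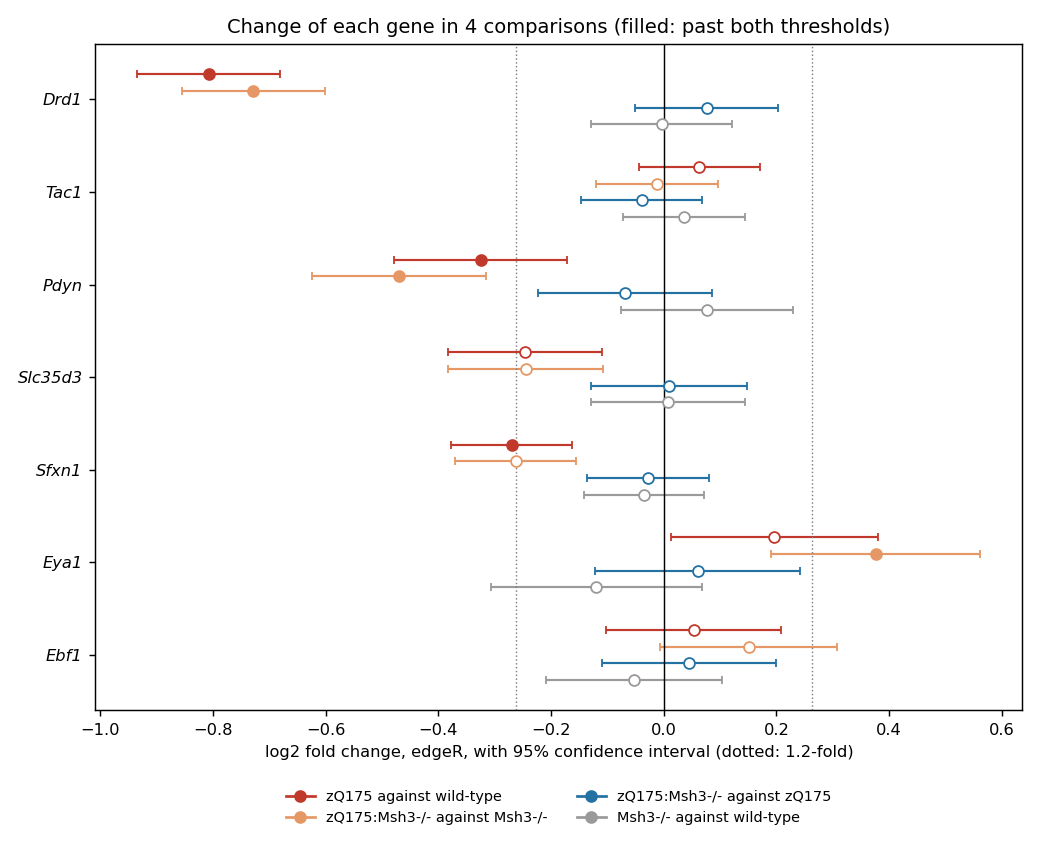
Log2 fold change (horizontal axis) of each of the 7 genes in 4 comparisons, with 95% confidence intervals from edgeR. Filled points passed both thresholds, and dotted lines mark a 1.2-fold change. Drd1 and Pdyn lie to the left in both comparisons of zQ175, at -0.81 and -0.73 for Drd1 and -0.32 and -0.47 for Pdyn, while all values for Msh3 loss lie between -0.12 and 0.08.

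The second comparison asked the same of zQ175 where Msh3 was absent, in 16 other mice. Drd1 and Pdyn were again lower in zQ175:Msh3-/- than in Msh3-/- mice, and Eya1 was higher, so that 3 of the 7 genes were called, 2 lower and 1 higher. Of all genes tested, 10.6% were called, 5.96% lower and 4.68% higher. That was 778 genes higher and 990 lower, against 1523 and 699 in the limma fit of TPM. The limma fit tested 22274 genes, with a median log2 fold change of 0.09. In the edgeR fit the median over the 7 genes was -0.24 and that over all genes tested 0.01.

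Drd1 was at 223, 244 and 293 CPM in the lowest, median and highest Msh3-/- mouse and at 126, 155 and 165 CPM in zQ175:Msh3-/- mice. The groups were apart, as in 5.39% of all genes tested. The log2 fold change was -0.73 (SE 0.0622, edgeR adjusted p = 4.54e-11). Pdyn was at 106, 125 and 145 CPM in Msh3-/- mice and at 78.2, 87.8 and 118 CPM in zQ175:Msh3-/- mice. Of the zQ175:Msh3-/- mice, 7 of 8 were below every Msh3-/- mouse. The log2 fold change was -0.47 (SE 0.0756, edgeR adjusted p = 1.77e-05).

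Eya1, at 5.85, 6.87 and 8.99 CPM in the lowest, median and highest Msh3-/- mouse, was at 7.64, 9.03 and 10.9 CPM in zQ175:Msh3-/- mice. The groups overlapped, but all 8 zQ175:Msh3-/- mice were above the Msh3-/- median. It was at 129.8% of the Msh3-/- level (log2 fold change 0.38, SE 0.0916, edgeR adjusted p = 0.00218). In males alone or females alone the direction was the same, at 0.34 and 0.43 on the log2 scale, without passing the test in either (edgeR adjusted p = 0.0778 and 0.0568).

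Tac1 was at 148, 169.8 and 180.1 CPM in the lowest, median and highest Msh3-/- mouse and at 147, 172 and 180.2 CPM in zQ175:Msh3-/- mice. These ranges were nearly the same, with a log2 fold change of -0.01 (SE 0.0532, edgeR adjusted p = 0.898) and a 95% confidence interval of 92.0% to 107% of the Msh3-/- level. Ebf1 ran from 18.6 to 26.7 CPM in Msh3-/- and from 21.3 to 28.0 CPM in zQ175:Msh3-/- mice (log2 fold change 0.15, SE 0.0770, edgeR adjusted p = 0.161), with all 8 of the latter above the Msh3-/- median. Neither gene passed the test.

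Sfxn1 fell just short of the fold threshold here. It ran from 42.4 to 54.6 CPM in Msh3-/- and from 35.5 to 44.3 CPM in zQ175:Msh3-/- mice, with a log2 fold change of -0.26 (SE 0.0532, edgeR adjusted p = 2.78e-04). It was called in 6 of the 16 alternatives that left out no single mouse, among them DESeq2 (-0.27) and the setting with no fold threshold. It also passed both thresholds in 8 of the 32 fits that left out 1 mouse, with values from -0.29 to -0.26. Those were the fits without Msh3-/- mouse M1, M3, F2 or F4 or zQ175:Msh3-/- mouse F1, F2, F3 or M5. Slc35d3 ran from 44.2 to 59.9 CPM in Msh3-/- and from 40.9 to 53.2 CPM in zQ175:Msh3-/- mice. Its log2 fold change of -0.24 (SE 0.0678, edgeR adjusted p = 0.00716) stayed under the fold threshold, and passed it without Msh3-/- mouse F1 (-0.28) or F4 (-0.27) or zQ175:Msh3-/- mouse M2 (-0.28).

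Against wild-type mice, which the first comparison also used, zQ175:Msh3-/- mice had lower Drd1 (log2 fold change -0.73), Pdyn (-0.39) and Sfxn1 (-0.30), and 3 of 7 genes were called lower, against 6.49% of all genes tested. Eya1 was at 0.26 on the log2 scale (edgeR adjusted p = 0.0317), just under the fold threshold. It was called in the limma fit of log2(TPM + 0.1), at 0.36, where Sfxn1 (-0.22) was not, and in 6 of the 32 fits that left out 1 mouse, those without wild-type mouse M4 (0.29) or F3 (0.30) or zQ175:Msh3-/- mouse M1 (0.28), F2 (0.29), M3 (0.27) or M4 (0.27). Slc35d3, at -0.24, passed both thresholds in the fit without zQ175:Msh3-/- mouse M2 (-0.27).

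The loss of Msh3 was compared in mice with and without zQ175, to ask whether it altered these genes. None of the 7 was called in either comparison by edgeR, and none had an unadjusted p under 0.05. DESeq2 called none either. Of all genes tested, 0.00602% were called in each comparison, which is Msh3 itself, and 3.7% and 5.09% had an unadjusted p under 0.05. With zQ175 present, the log2 values for Msh3 loss ran from -0.07 for Pdyn to 0.08 for Drd1. Drd1 was at 105% of the zQ175 level, with a 95% confidence interval of 96.6% to 115%. The interval holds no return to the wild-type level, of which zQ175 mice had 57.1%.

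Between Msh3-/- and wild-type mice the log2 values ran from -0.12 for Eya1 to 0.08 for Pdyn. Drd1 was at 99.8% of the wild-type level (95% confidence interval 91.5% to 109%). Whether the zQ175 effect depended on Msh3 was tested by the interaction term, which was past the threshold for none of the 7 genes or of all genes tested by edgeR. None of the 7 had an unadjusted p under 0.05 for it, against 4.44% of all genes tested. The largest interaction values were -0.15 for Pdyn (SE 0.107) and 0.18 for Eya1 (SE 0.129), so that the different calls of Eya1 in the comparisons with and without Msh3 are not shown to differ.

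The unequal response of the 7 genes was measured within each mouse, as the difference in log2 CPM between 2 genes, which does not depend on the scaling of the library. Relative to Drd1, each of the other 6 genes was higher in mice with zQ175 in both comparisons, in all 12 tests. Exact two-sided permutation tests, adjusted over 12 tests, gave p = 1.70e-04 in 11 tests and 0.0121 for Pdyn in the absence of Msh3. The 11 equal values come from the smallest p that 8 mice against 8 allow. All 12 tests share Drd1, the member that fell most, as reference, so they largely restate its fall and are not separate results. Tac1 rose by 0.86 relative to Drd1 in zQ175 against wild-type mice (interval 0.74 to 0.99, by inversion of the permutation test) and by 0.72 in zQ175:Msh3-/- against Msh3-/- mice (0.65 to 0.78). In the mice without zQ175 the Tac1 count was below the Drd1 count in every mouse, by 0.83 to 0.45 on the log2 scale in wild-type mice, and in all 16 mice with zQ175 it was above.

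**Figure D3:**
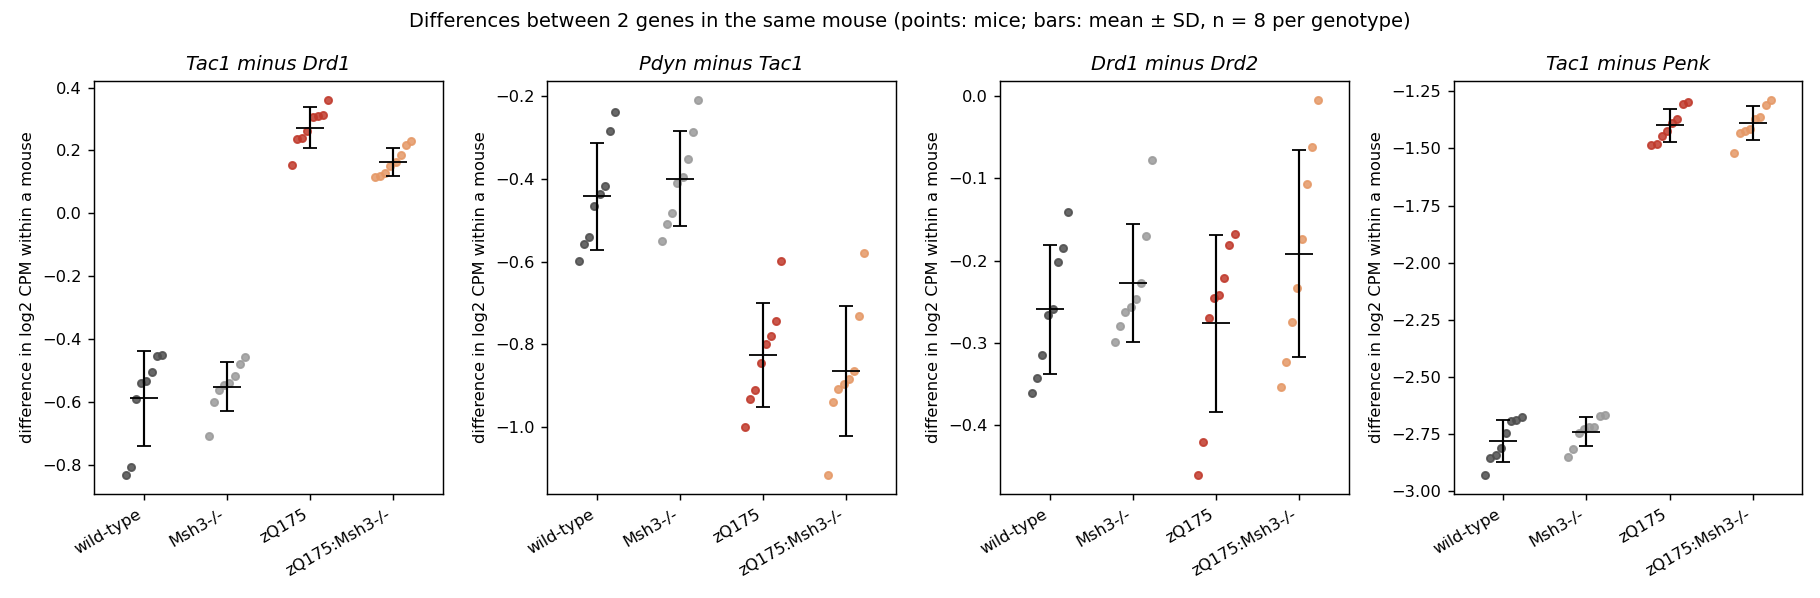
Difference in log2 CPM between 2 genes in the same mouse (vertical axes, not starting at 0), by genotype. Points are mice and bars are the mean ± SD of 8 mice. The groups with and without zQ175 are apart for Tac1 minus Drd1 and Tac1 minus Penk, are shifted for Pdyn minus Tac1, and overlap for Drd1 minus Drd2, where the means run from -0.28 to -0.19.

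The 2 peptide precursors of the direct pathway were set against each other after their values had been seen. In wild-type mice Pdyn was below Tac1 by 0.44 ± 0.128 on the log2 CPM scale, and in zQ175 mice by 0.83 ± 0.125 (SD, n = 8). The difference of -0.38 had an exact two-sided permutation p = 3.11e-04, and that of -0.46 between zQ175:Msh3-/- and Msh3-/- mice p = 1.55e-04. The groups overlapped slightly in the first and not in the second.

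Across pathways the receptors and the peptides gave different pictures. The D2 receptor gene Drd2, the counterpart of Drd1, was at 294.9 ± 27.6 CPM in wild-type and 171 ± 17.8 CPM in zQ175 mice, and no difference was detected in Drd1 minus Drd2 (-0.02, interval -0.12 to 0.08, exact permutation p = 0.719), nor where Msh3 was absent (0.04, interval -0.07 to 0.15, p = 0.492). The enkephalin precursor gene Penk fell by 1.32 on the log2 scale in zQ175 mice, and Tac1 minus Penk was higher by 1.38 (interval 1.29 to 1.47) in zQ175 against wild-type mice and by 1.35 (1.27 to 1.42) in zQ175:Msh3-/- against Msh3-/- mice, with groups apart in both (exact permutation test, p = 3.11e-04 adjusted over 4 tests). Of the 6 indirect pathway genes tested, 4 were lower in each comparison. The other 3 called were Adora2a (-1.03), Gpr6 (-0.80) and Drd2 (-0.79), and Sp9 (-0.11) and Grik3 (0.01) were not called. The median of the 6 was -0.79, beside -0.25 for the 7 direct pathway genes.

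Of 4 further genes of direct pathway neurons, 2 were lower with zQ175 in both comparisons. Chrm4, the M4 muscarinic receptor gene, was at -0.74 and -0.80 on the log2 scale, and Plxnd1, a semaphorin receptor gene, at -0.42 and -0.33. The transcription factor genes Isl1 (0.21 and 0.20) and Zfp521 (0.10 and 0.06) were not called. Like Eya1 and Ebf1, they had values at or above 0 with zQ175.

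The receptors for the peptides were measured in the same tissue. Tacr1, which encodes the substance P receptor, was lower in zQ175 mice (-0.33, edgeR adjusted p = 7.39e-05), and so was Oprk1, which encodes the kappa opioid receptor for dynorphin (-0.32, adjusted p = 0.0116). Tacr3, at -0.18, did not pass, and Tacr2 was below the filter on low counts. Where Msh3 was absent, Oprk1 (-0.42) was lower, and Tacr1 (-0.25) and Tacr3 (-0.24) were not called.

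Of 9 genes for the processing and storage of peptide precursors, 2 were higher in zQ175 mice and none was lower. Pcsk1, a convertase that cuts precursors at basic pairs, rose by 0.53 (SE 0.125, edgeR adjusted p = 0.00177), and Scg5, the chaperone of the second convertase, by 0.30 (SE 0.0377, adjusted p = 1.14e-07). The second convertase gene, Pcsk2, was the lowest of the list at -0.21 and was not called. Where Msh3 was absent Pcsk1 was higher (0.56) and Scg5 (0.23) was under the fold threshold.

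Of 15 genes of D1 receptor signalling, 8 were lower in each comparison and none was higher, with medians of -0.33 and -0.28. In zQ175 mice the lowest were Pde10a (-1.18), a phosphodiesterase gene, and Arpp21 (-1.01), a target of protein kinase A, and Adcy5 (-0.85), the adenylyl cyclase driven by the receptor, and Pde1b (-0.76) were also lower. The highest of the list was Prkar2a (0.20), a regulatory subunit of protein kinase A, which was not called. Pde10a and Ppp1r1b, which was also lower, are both among the 6 general spiny neuron markers, so their falls enter both lists. The counts come from whole striatum and do not assign these values to the direct pathway.

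**Figure D4:**
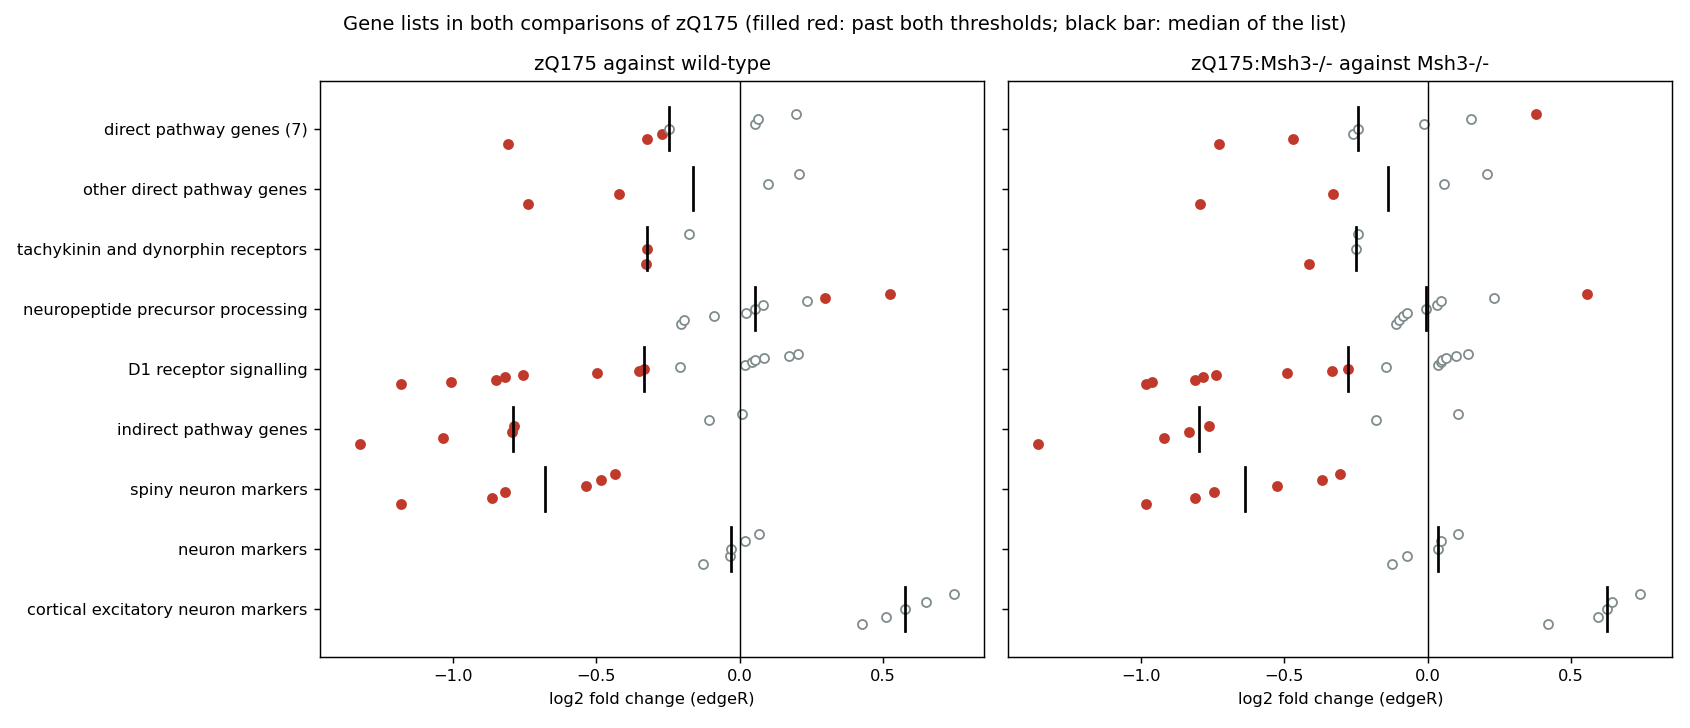
Log2 fold change (horizontal axis) of the genes of 9 lists in zQ175 against wild-type mice (left) and in zQ175:Msh3-/- against Msh3-/- mice (right). Each point is a gene, filled red where it passed both thresholds, and a black bar is the median of the list. The 7 direct pathway genes spread from -0.81 to 0.20 on the left, the 6 general spiny neuron markers are all lower, and none of the 5 pan-neuronal or 5 cortical markers was called.

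Relatives of Sfxn1, Eya1 and Ebf1 were read from the same fit. Of the 4 other sideroflexin genes none was called in either comparison, with values from -0.15 to 0.01 in zQ175 mice. Of 10 genes of the eyes absent and EBF families and their partners, 7 were tested and Eya4 was higher in both (0.47 and 0.46), while Ebf3 was the lowest in zQ175 mice (-0.19) and was not called. The histamine receptor gene Hrh2 lies on the far side of Sfxn1 from Drd1 and was named after its values were seen. It was at 0.08 (edgeR adjusted p = 0.486) in zQ175 mice and at 0.16 (edgeR adjusted p = 0.116) where Msh3 was absent. Gm48623, a lincRNA gene 193616 bases from Sfxn1 on the same side and named in the same way, was lower in both comparisons (-0.30 and -0.28). Of the genes around Slc35d3, also named after their values were seen, Il20ra was lower (-0.70 and -0.52) and Pex7 (-0.02 and -0.03) was not called. Members aside, Gm48623 and Il20ra were the only genes tested within 250 kb of a member that were called in either comparison.

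Markers of the other cells in the tissue were read from the same fit. All 6 general spiny neuron markers were lower in both comparisons, with medians of -0.68 and -0.64, and none of 5 pan-neuronal markers was called in either, with medians of -0.03 and 0.04. None of the 5 astrocyte or 5 microglia markers was called in either comparison. Of the 3 cholinergic interneuron markers, 2 were lower in zQ175 mice and 3 where Msh3 was absent, and of the 5 GABAergic interneuron markers Pthlh was lower in both (-0.36 and -0.33). Of the 3 thalamic markers Lef1 was lower in zQ175 mice (-0.28), and none of the 4 choroid plexus markers was called. Of the 5 oligodendrocyte markers, Mobp was lower in zQ175 mice (-0.33). Of the 4 endothelial markers, Flt1 (-0.33) and Tek (-0.38) were lower in zQ175 mice, and of the 4 pericyte markers Kcnj8 (-0.34) was lower where Msh3 was absent. Ebf1 is also expressed by pericytes, and the summed pericyte marker level was 169 to 193 CPM in wild-type and 152 to 181 CPM in zQ175 mice. For deviations from genotype means over 32 mice, Ebf1 had a Pearson r of -0.01 with the pericyte and 0.60 with the general spiny neuron markers. The part of pericytes in the value of Ebf1 was not tested.

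Markers of cortical excitatory neurons had medians of 0.58 and 0.62 in the 2 comparisons, without a call among 5 markers. The median was 0.87 in zQ175:Msh3-/- against wild-type mice, and 0.35 and 0.31 for Msh3 loss with and without zQ175, also without a call. Within genotypes, mice with more cortical marker reads had less Slc35d3 (Pearson r = -0.69 for deviations from genotype means over 32 mice), Ebf1 (-0.63), Drd1 (-0.58) and Tac1 (-0.55), whereas r was -0.37 for Pdyn, -0.03 for Sfxn1 and 0.23 for Eya1. For Drd1 the same measure was -0.74 with thalamic, -0.70 with GABAergic interneuron and -0.59 with pan-neuronal markers, and 0.79 with the general spiny neuron markers. These values share libraries and scaling, and of these marker levels only the cortical one was put in the model. With the cortical marker level as a term of the model, a setting chosen after the data were seen, 3 of the 7 genes were called in each of the 3 comparisons of zQ175, beside 1911, 1714 and 1862 of all 16610 genes tested. Drd1 was at -0.76 and -0.67, Pdyn at -0.29 and -0.43, and Tac1 at 0.10 and 0.03 on the log2 scale. Slc35d3 moved to -0.19 and -0.18, and Ebf1 to 0.11 and 0.23, where the second had an edgeR adjusted p of 0.00804 and was under the fold threshold.

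Within genotypes some of the 7 genes varied together. Over all 32 mice Drd1 and Tac1 had a Pearson r of 0.10, but for deviations from the genotype means it was 0.72. By the same measure r was 0.74 for Drd1 and Ebf1, 0.67 for Drd1 and Slc35d3, 0.67 for Tac1 and Slc35d3 and 0.56 for Tac1 and Pdyn, and 0.21 for Drd1 and Pdyn. These correlations are descriptions over mice that share a dissection and a library each.

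By likeness of level over the 32 mice, the genes closest to Drd1 were Arpp21 (r = 0.985), Pde1b (0.984) and Adcy5 (0.981). For Tac1 they were Pbx3 (0.741), Nsg2 (0.709) and Sertad4 (0.706), and for Pdyn Smarcd3 (0.897), H2afx (0.883) and Rgs14 (0.874). For Slc35d3 they were Pcp4l1 (0.880), Slc22a3 (0.871) and Nfx1 (0.851), and for Sfxn1 Pde2a (0.880), Nus1 (0.878) and Pde7b (0.865). Within genotypes Arpp21 was again closest to Drd1 (0.866), and Tac1 was closest to Meis2 (0.836), Arpp21 (0.832) and Pbx3 (0.831). Pcp4l1 remained closest to Slc35d3 (0.801).

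None of the 7 genes was called between males and females in a model of genotype and sex (edgeR adjusted p of 0.591 or more, 28 of 16610 genes called), with log2 differences of male minus female from -0.05 to 0.09. The zQ175 effect was also compared between the sexes, a test added after the data were seen, and none of the 7 genes passed it in either comparison (edgeR adjusted p of 0.722 or more). The lowest p belonged to Pdyn where Msh3 was absent, with an effect of -0.65 in males and -0.23 in females. For Drd1 with Msh3 intact the effect was -0.66 in males and -0.95 in females (edgeR adjusted p = 0.982).

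Promoter windows of 300 bases, from 250 before to 50 after the RefSeq start on GRCm38.p6, were matched for 6 of the 7 genes, in 9 windows. A search on both strands for the half-site of the cyclic AMP response element, TGACG, found 2 matches in the window of Tac1, 1 in that of Slc35d3 and 1 in a window of Ebf1, and none in those of Drd1, Pdyn or Sfxn1. The motif was in 20.8% of all 32851 promoter windows. Neither the full element, TGACGTCA, nor the TATA motif TATAAA was found in the 9 windows, against 1.79% and 13.6% of all windows.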

How the data were processed

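Striatal RNA-seq of 32 mice was read from 2 tables. The main table, as deposited, holds raw read counts for each gene. The deposited second table is named FPKM, but each of its columns sums to 1000000, so it was used as TPM, for levels between genes and for alternatives. The build in the submitters' processing notes is GRCm38.p6, and the aligner, counter, strand setting and annotation are not given in the sources used here. Gene symbols came from GENCODE M21, and promoters from RefSeq GRCm38.p6.

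Genes with low counts were removed with the edgeR filter, leaving 16610. Counts were scaled by TMM and tested with the edgeR quasi-likelihood test (edgeR 4.0.16, R 4.3.3), with 1 model of all 4 genotypes and Benjamini-Hochberg adjustment over all genes tested. A call needed an adjusted p under 0.05 and a 1.2-fold change. DESeq2 1.42.0 and limma 3.58.1 served as alternatives. Differences between 2 genes within a mouse were tested by exact permutation over 12870 arrangements (Python 3.11.15, scipy 1.17.1). The steps were tested on simulated data.

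Each sample is a separate mouse by its labels, so p-values measure the spread between mice. The smallest library held 12359347 counts, and counting error weighs more on the genes with few reads, such as Eya1 and Ebf3. A further sequence is not reported here. The members and lists were chosen with earlier results of these data known. Named genes were the 7 members, and of each list the lowest, the highest and up to 4 called genes, or any gene of lists of at most 7, and for each member the 3 most correlated genes. Genes near a member and the comparison of Pdyn with Tac1, of the sexes and with the cortical marker level were added after the data were seen.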

Additional observations from a re-analysis of the deposited data

Results flagged for a closer look

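Of 28 sets of 8 mice, 1 for each of the 7 genes in each of the 4 genotypes, 1 had a mouse far from the others, where chance gives about 1 in 20, or 1.4 of 28. It was Sfxn1 in zQ175 mice. Mouse F2 was at 35.2 CPM and the other 7 lay between 40.3 and 43.9 CPM, and on the log2 CPM scale, on which the sets were examined, the gap made up 0.604 of the range, above Dixon's 95% critical value for 8 samples. Without this mouse the log2 fold change of Sfxn1 in zQ175 against wild-type mice was -0.24 (edgeR adjusted p = 5.24e-04), under the fold threshold.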

How the results depend on the processing

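Drd1 was called lower in all 3 comparisons with zQ175 under all 16 alternatives that left out no single mouse and in all 32 fits that did. In zQ175:Msh3-/- against Msh3-/-, 4 members in place of 3 were called with DESeq2, which called 1621 of 32560 genes tested. The same held with RLE in place of TMM scaling (1775 of 16610). It also held with no filter on low counts (1662 of 32560) or with at least 10 counts in every mouse (1586 of 14288). These fits tested unlike numbers of genes, so their counts of genes called are not alike as a background. The counts of calls among the 16610 genes of the main fit also turned on the fold threshold. With none, 4 of the 7 genes were called in zQ175 against wild-type, 5 in zQ175:Msh3-/- against Msh3-/- and 5 in zQ175:Msh3-/- against wild-type, with 4398, 4002 and 4469 genes in all. At 1.5-fold, 1 member was called in each, with 538, 503 and 568 genes, and with glmTreat against a 1.2-fold change 1, 2 and 1 members, with 641, 541 and 624 genes. In males alone 16771 genes were tested. Of these, 1180 were called in zQ175 against wild-type, 1244 in zQ175:Msh3-/- against wild-type and 3 in Msh3-/- against wild-type. In females alone 1 member and 1067 of 16699 genes were called in zQ175:Msh3-/- against Msh3-/-. Pdyn (-0.23, edgeR adjusted p = 0.285) was not called there, a loss whose cause was not tested. Drd1 minus Drd2 in zQ175 against wild-type mice was 0.081 in males and -0.12 in females, and Pdyn minus Tac1 where Msh3 was absent -0.30 in females. Sfxn1 in zQ175 against wild-type mice was not called in males alone (-0.19) or in the limma fits of TPM (-0.21 for both pseudocounts). Leaving out 1 mouse gave 3 to 5 members called in zQ175:Msh3-/- against Msh3-/-, with 5 without Msh3-/- mouse F4, a fit that called 1853 of 16660 genes.

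The main fits did not pair mice by replicate number. Deviations of same-numbered mice correlated from -0.127 to 0.333 over 37 pairs, 13 of them above 0.1, and 8 of 37 correlated best with their own number. No chance level was computed for these values, so they do not settle whether the numbers pair the mice. With the replicate number as a block, 3 members were called in each of the 3 comparisons with zQ175. Over all 16610 genes, 1931, 1694 and 1901 were called. Differences between 2 genes were then tested by flipping signs over same-numbered mice, which drops unmatched mice and cannot reach as small a p. By that test Pdyn minus Drd1 where Msh3 was absent was 0.23 and did not pass. The change of test and of mice cannot be told apart from the pairing there. No other call on a member changed under the block, and no called value changed direction under any alternative. Depth limits the genes with few reads, Eya1 among the members.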
